A study of Mus musculus with 25 samples.

Results

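The pituitary transcriptome without any gonadotropin-releasing hormone (GnRH) was described in the 11 placebo animals among the 25 mice of the series. All animals were hypogonadal (hpg/hpg), a genotype with a deletion in the GnRH gene, so that no GnRH of their own reached the gland, and the placebo animals received saline intraperitoneally once daily for 10 days. They were killed 1 hour after the last injection, and whole pituitaries were homogenized for bulk RNA sequencing of polyadenylated RNA. Animals 1 to 5 were female and animals 12 to 17 male (5 and 6 animals). Each library came from 1 animal, and age, strain and hour of killing were not given in the sources used here. The remaining 14 mice, which received GnRH, were left out of every mean, spread and test, although the deposited scale was set over all 25 libraries. Gonadotropes, stimulated by GnRH in a normal mouse, were thus seen in a state without this input, and no intact animal was available as a reference.

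The anterior pituitary makes its hormones in separate cell lineages. Somatotropes, lactotropes and thyrotropes arise under the transcription factor Pou1f1 and make growth hormone (Gh), prolactin (Prl) and thyroid-stimulating hormone (Tshb with the common alpha subunit Cga). Corticotropes and the melanotropes of the intermediate lobe cut their peptides from the precursor Pomc. Gonadotropes join Cga with Lhb or Fshb to luteinizing and follicle-stimulating hormone, both normally driven by GnRH. The posterior lobe holds the axon ends of hypothalamic vasopressin (Avp) and oxytocin (Oxt) neurons and a glia-like cell, the pituicyte.

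The deposited values are regularized log2 values (rlog), in which a step of 1 is a doubling of the shrunken level. Shrinkage pulls low values toward a gene's mean over the libraries, so that such a value does not by itself show that a transcript was detected. They are scaled between libraries but not for transcript length, and the original counts and the depth are unknown. Levels of different genes were therefore compared as level per kb, the rlog value minus log2 of the gene's exon length in kb. Of 47069 genes, 19147 had a mean of at least 3 and were examined further, 19039 of them with a length. The 11 libraries correlated pairwise at 0.995 to 0.998 across genes, and their medians lay between 8.09 and 8.13.

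Hormone transcripts led the gland. Gh (chr11:106300271-106301865, mm10) was first by rlog value at 21.42 and first per kb at 21.63, in every animal. Pomc (chr12:3954951-3960642) followed at 18.39 and Prl (chr13:27057570-27065205) held rank 5 at 17.25. After back-transformation of the rlog values, Gh alone made up 15.1% of the summed values (12.4% in animal 12 to 19.0% in animal 2). The 7 hormone genes together made up 18.2% (15.0% to 21.1%). The 30 highest genes held 27.6% (24.1% to 31.7%). These are shares of shrunken values without a length term, not shares of molecules.

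Besides Gh, Pomc and Prl, the 30 highest genes included mitochondrial, granule and imprinted transcripts, of which mt-Co1 and Meg3 stood ahead of Prl. The elongation factors Eef1a1 and Eef2, the helicase Ddx5, the nuclear RNA Malat1 and the binding protein Igfbp5 were among the others. The leading mitochondrial messenger was mt-Co1, a subunit of cytochrome oxidase, with an rlog value of 17.57, and 9 of the 30 were mitochondrial. The 13 messengers of the mitochondrial genome held 4.08% of the summed values (3.54% in animal 17 to 5.13% in animal 15). Another 4 of the 30 (Gm10925, Gm28661, Gm28437 and Gm29216) are predicted genes that resemble mitochondrial sequence, and their reads cannot be told apart with certainty from those of the mitochondrial genes. Granule proteins were present through Chgb at 16.53, Chga at 15.48, Scg2 at 15.06 and the convertase inhibitor Pcsk1n at 14.84. Imprinted genes stood as high. The noncoding Meg3 reached 17.50 and its neighbours Rian and Dlk1 15.51 and 15.83, all from the same imprinted domain. Nnat reached 16.97 and Peg3 14.86. The same 30 genes led in the females alone and in the males alone. Per kb, 21 of the 30 remained, and the short Cga transcript was among those that entered, whereas the long Meg3, Rian, Peg3 and Malat1 left.

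The other hormone subunits ranked far below Gh. The common alpha subunit Cga (chr4:34893779-34907370) had an rlog value of 14.52 and was number 34 by rlog value and 24 per kb. Lhb (chr7:45420820-45421897) had a level of 11.03 per kb, at rank 234, and the rank in single animals ran from 178 to 341. Tshb (chr3:102775465-102782718) had 10.13 per kb at rank 528. Fshb (chr2:107056140-107059656) was the lowest of the 7 with 8.89 per kb at rank 1650, from rank 599 in the best animal to 2618 in the worst.

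**Figure D1:**
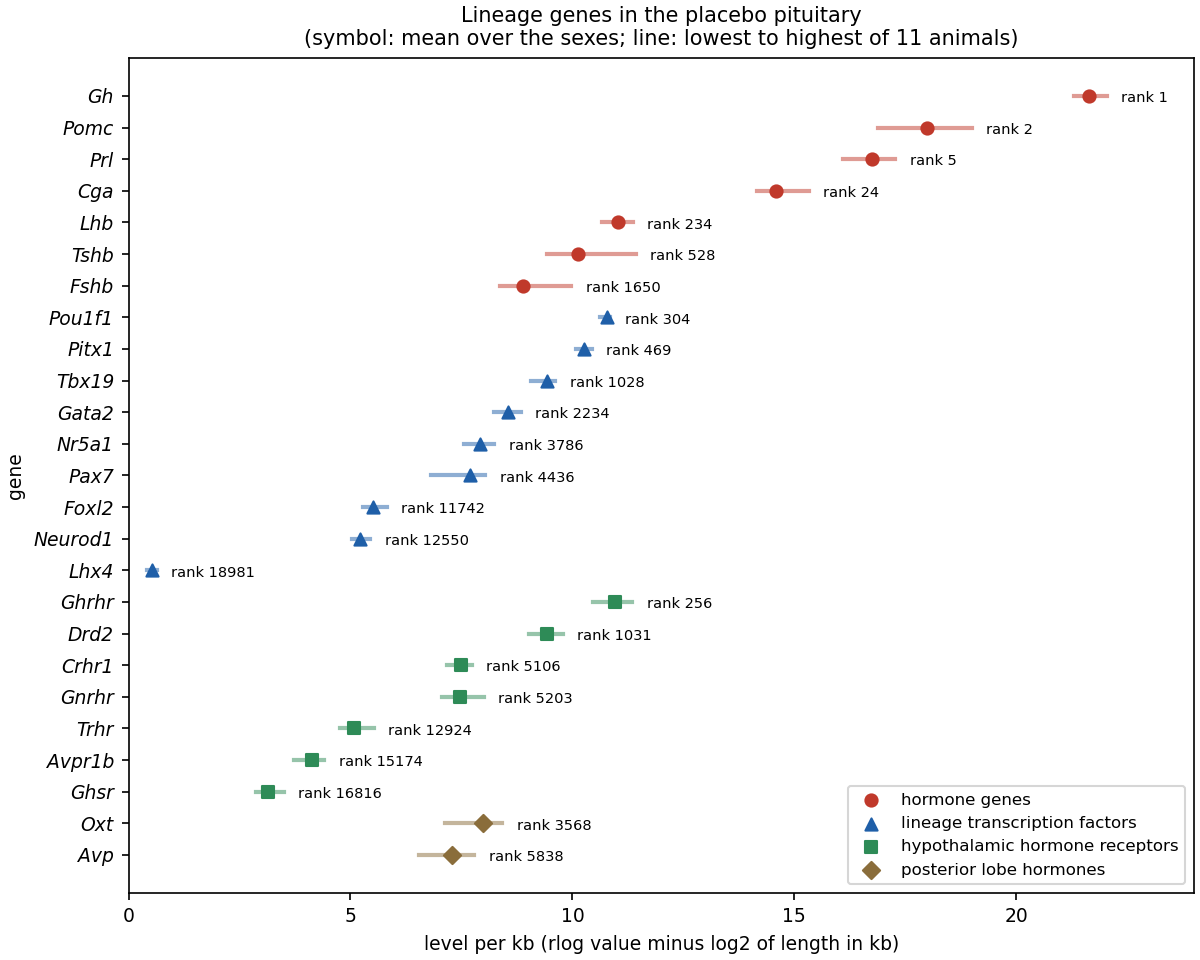
Level per kb (horizontal axis, rlog value minus log2 of length in kb) of 7 hormone genes, 9 lineage transcription factors, 7 receptors and 2 posterior lobe hormones. Symbols are the mean of the female and male means, lines run from the lowest to the highest of 11 animals, and the rank among 19039 genes stands beside each; Gh, Pomc and Prl hold ranks 1, 2 and 5 and Lhx4 rank 18981.

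In the somatotrope and lactotrope lineages, the hormone genes varied from animal to animal while their shared transcription factor hardly did. In the 5 females Gh had rlog values of 21.52, 21.82, 21.48, 21.09 and 21.26, and in the 6 males it ran from 21.09 over a median of 21.46 to 21.64. The sexes overlapped over nearly the whole range, with the low values in animals 4 and 12. Prl was 17.35, 17.76, 17.60, 16.59 and 16.90 in the females and 16.89, 17.24 and 17.60 (lowest, median, highest) in the males. Females 4 and 5 were the low ones among the females for both hormones. Pou1f1, which switches on Gh, Prl and Tshb, had a level of 10.77 per kb at rank 304, and its rlog values stayed between 12.59 and 12.81 in all 11 animals. The SD of Pou1f1 after subtraction of each sex's mean was 0.0557, against a median of 0.108 over all genes examined. Among the receptors, Ghrhr for growth hormone-releasing hormone had 10.95 per kb at rank 256. Drd2, through which dopamine restrains lactotropes, had 9.43 at rank 1031, while the ghrelin receptor Ghsr had 3.15 at rank 16816.

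In the corticotrope and melanotrope lineages Pomc spanned a wider range. The females had rlog values of 18.53, 17.28, 18.36, 18.24 and 17.79 and the males 17.90, 18.71 and 19.39 (lowest, median, highest). Animal 2 was lowest and animal 15 highest, and 4 of 6 males lay above all females. Tbx19, the transcription factor of both Pomc lineages, had 9.43 per kb at rank 1028. The melanotrope factor Pax7 had 7.70 at rank 4436, the corticotropin-releasing hormone receptor Crhr1 7.50 at rank 5106, and the vasopressin receptor Avpr1b 4.12 at rank 15174. The transcripts of the posterior lobe hormones were measured too, with 7.99 per kb for Oxt and 7.28 for Avp.

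In the thyrotrope and gonadotrope lineages Tshb had rlog values of 12.37, 11.74, 12.08, 12.03 and 13.09 in the females and 11.60, 12.27 and 13.61 in the males. Animals 5 and 16 were the high ones and the sexes overlapped. Cga was likewise highest in animals 5 and 16 and lowest in animals 2 and 12, with 14.48, 14.13, 14.41, 14.39 and 14.85 in the females and 14.09, 14.58 and 15.25 in the males. Lhb was 10.11, 10.80, 10.13, 10.78 and 10.49 in the females and 10.13, 10.51 and 10.69 in the males. Fshb was 10.65, 9.80, 9.49, 9.25 and 9.65 in the females and 9.05, 9.31 and 9.94 in the males, so that animal 1 stood above the 10 others. The GnRH receptor Gnrhr, which had no ligand in these animals, was read at 9.68, 9.13, 8.75, 9.30 and 9.28 in the females and 8.80, 9.07 and 9.46 in the males. Its level per kb was 7.47 at rank 5203, next to Crhr1. Of the gonadotrope transcription factors, Gata2 had 8.55 per kb at rank 2234, Nr5a1 7.91 at rank 3786 and Foxl2 5.51 at rank 11742. Of the 11 gonadotrope genes examined, 10 passed the filter on low values. The other, Fst, which encodes the activin-binding follistatin, had a mean rlog value of 1.98. The receptor for thyrotropin-releasing hormone, Trhr, had 5.09 per kb at rank 12924.

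**Figure D2:**
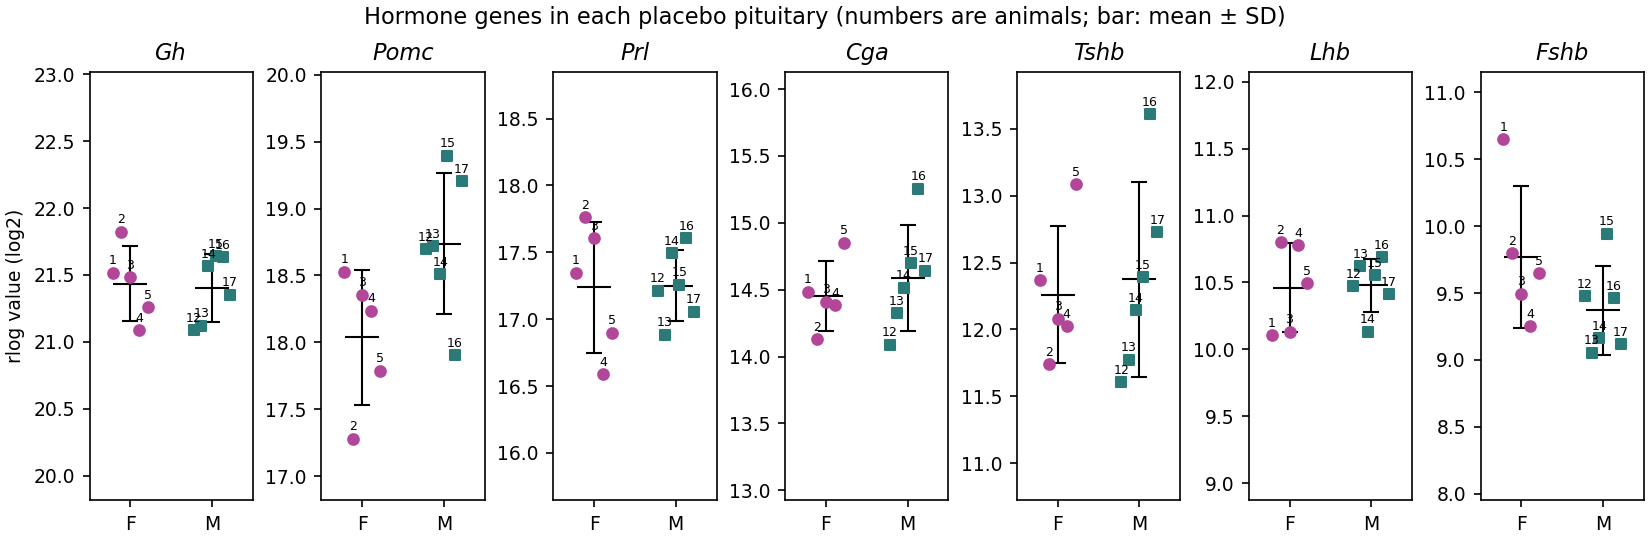
Rlog values (log2 scale, vertical axis) of the 7 hormone genes in the 5 female and 6 male placebo animals, each point 1 animal with its number, bars the mean and SD of each sex. Every panel spans the same number of log2 units; Tshb runs from 11.60 to 13.61 and Gh from 21.09 to 21.82, and the sexes overlap in all 7 panels.

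Transcription factors shared by several lineages were spread over a wide range of levels. Pitx1 had a level of 10.25 per kb at rank 469 and Lhx3 9.87 at rank 674. Six6 and Six3, factors of early head and pituitary development, had 9.39 at rank 1064 and 8.91 at rank 1612. Sox2, which marks stem and folliculostellate cells, had 8.60 at rank 2110, and the folliculostellate enzyme Cyp2f2 11.23 at rank 197. Neurod1 had 5.22 at rank 12550 and Lhx4 0.53 at rank 18981, and Hesx1 had an rlog mean of 2.14, below the filter. The hormone genes and most lineage markers of the labelled tissue thus passed the filter, as did 19147 of all 47069 genes. In the list of bone and cartilage markers, 5 of 6 genes fell below the filter, and of 6 neutrophil and mast cell genes 2 passed. Of other lists, 7 of 8 lymphocyte and plasma cell, 6 of 8 neuron, 6 of 7 skeletal muscle and 5 of 6 ciliated cell genes passed. Passing the filter therefore does not by itself mark a cell type as part of the gland.

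Variation between placebo animals was taken after subtraction of the mean of each sex's set. The median SD over the 19147 genes was 0.108, and the 10th and 90th percentiles were 0.0614 and 0.188. Only 56 genes had an SD above 0.5 and 7 above 1. The first 3 principal components held 28.7%, 17.4% and 13.6% of the centred variance. Animals 15 and 2 contributed most to the centred squares, 13.7% and 13.2%, and animal 4 least with 6.61%. All 7 hormone genes varied more than the median gene, from 0.265 for Gh and 0.267 for Lhb over 0.342 for Cga, 0.382 for Prl, 0.434 for Fshb and 0.519 for Pomc to 0.642 for Tshb. The genes chosen here as most variable were picked by their values, so their spread and shared patterns are descriptions without a test.

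The 30 most variable named genes fell into a few kinds. Gdpd3, a lysophospholipase D, had the largest SD at 1.14. It was followed by the globin genes Hba-a1 (1.14), Hbb-bs (1.13), Hbb-bt (1.10) and Hba-a2 (1.09) and by Alas2 (1.03), the erythroid enzyme of haem synthesis. The myelin gene Prx had 0.650. Stimulus-induced genes included Nr4a1 (0.738), Fos (0.729), Fosb (0.650), Egr1 (0.644) and Sik1 (0.592). The clock gene Per2 had 0.636 and the glucocorticoid-induced Zbtb16 0.579. Tshb was the one hormone subunit among the 30. The last member was Rpl29 at 0.578, and the next genes outside were Fndc3c1 at 0.575 and Col25a1 at 0.565.

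**Figure D3:**
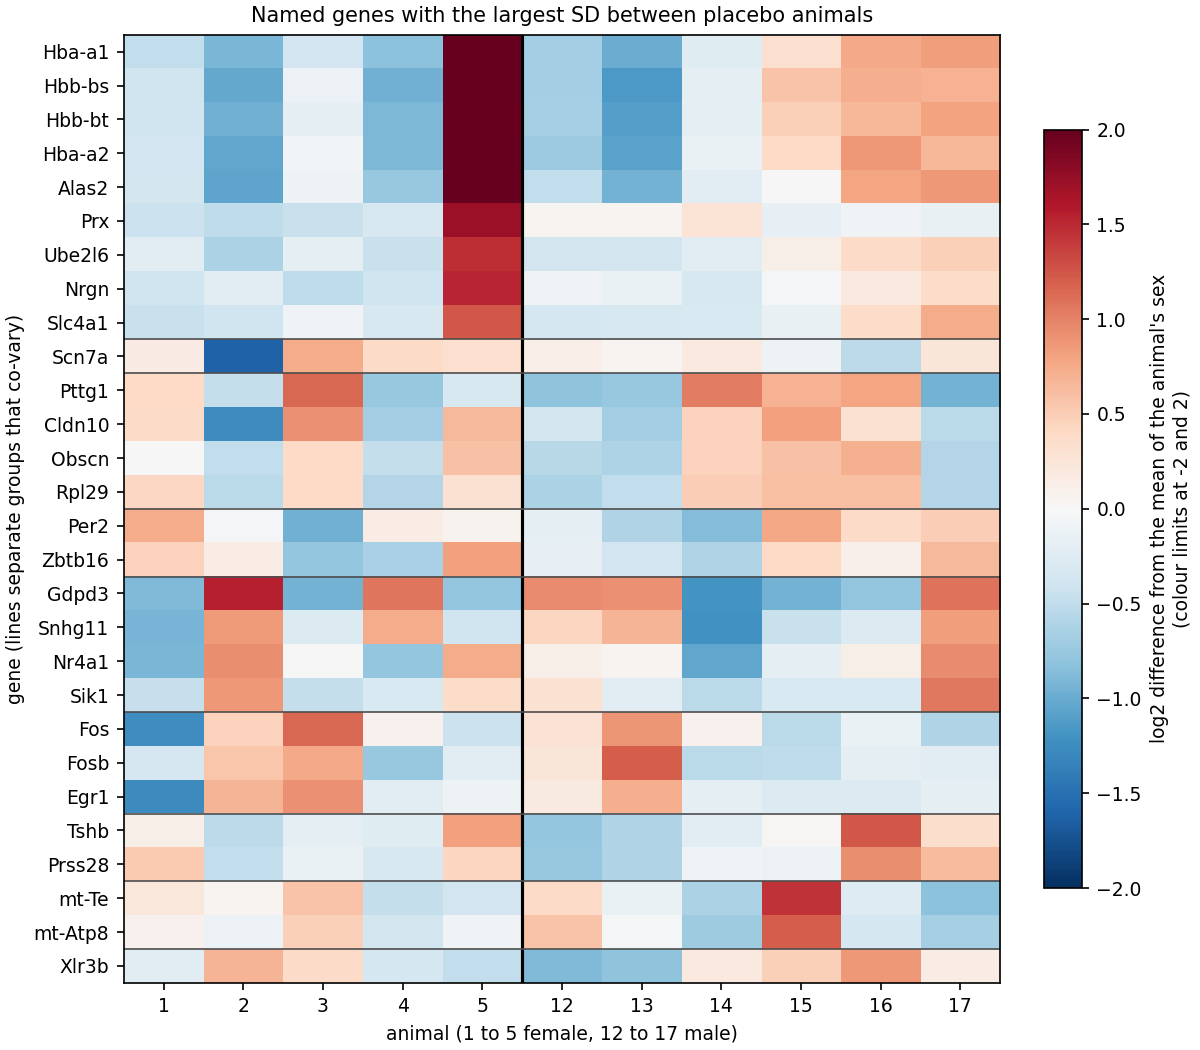
Centred rlog values (colour, log2 units from the mean of each animal's sex) of the most variable named genes (rows) in the 11 placebo animals (columns). Globin, Alas2 and Prx values are high in animal 5, Scn7a is low in animal 2, and Gdpd3 and Snhg11 are high in animals 2, 4, 12, 13 and 17.

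Grouping of the 100 most variable genes by their centred profiles (average linkage, mean correlation of at least 0.6) placed 93 of them in 11 groups. Across all pairs of genes examined the median correlation was -0.000653, and 5.82% of pairs reached 0.6. A correlation over these 11 animals shares the same libraries and scaling for every pair. In a homogenized gland, fewer cells of a type and less RNA per cell cannot be told apart.

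The largest group, 16 genes with a median pairwise correlation of 0.924, held blood and nerve transcripts and was set mostly by animal 5. Hba-a1 had rlog values of 12.49, 12.07, 12.59, 12.15 and 15.60 in the females and 12.07, 13.10 and 13.90 in the males. Prx (periaxin), a Schwann cell protein of peripheral myelin, was at 5.17, 5.10, 5.16, 5.28 and 7.31 in the females and at 5.12, 5.28 and 5.56 in the males. Animal 5 was thus far above all others for both, but the males that were highest for Hba-a1, 16 and 17, were not the highest for Prx. Without animal 5 the median correlation of the group was 0.690. The 6 red blood cell genes still moved together at 0.958 without it (0.986 with it), and the myelinating glia genes at 0.353 (0.794 with it). Globin was depleted during library preparation, so these values may not follow the blood content. The 4 globin genes held 0.0562% of the summed values in animal 2 and 0.677% in animal 5.

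The next group, 15 genes at 0.868, joined Pomc to genes of the intermediate and posterior lobes. It contained Pcsk2, the convertase that cuts Pomc to melanocyte-stimulating hormone, Oacyl, the collagens Col25a1, Col23a1 and Col13a1, and Scn7a, a sodium channel of pituicyte-like glia. Scn7a had rlog values of 9.89, 8.10, 10.47, 10.11 and 10.05 in the females and 9.41, 10.03 and 10.17 in the males. Pcsk2 had 12.83, 11.56, 13.07, 12.67 and 12.48 in the females and 12.22, 12.98 and 13.27 in the males. Animal 2 was lowest for both and animal 16 lowest among the males. Over the whole group, animal 2 stood at -1.12 from the female mean and animal 16 at -0.43 from the male mean. Without animal 2 the median correlation of the group was 0.554. Among the melanotrope genes, 5 of 5 passed the filter and all 10 pairs correlated positively, with a median of 0.806 and of 0.709 without animal 2. All 28 pairs of the 8 posterior lobe genes were positive at a median of 0.755, which was 0.333 without animal 2. The part of the lobes' share of the sample in these values was not tested.

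**Figure D4:**
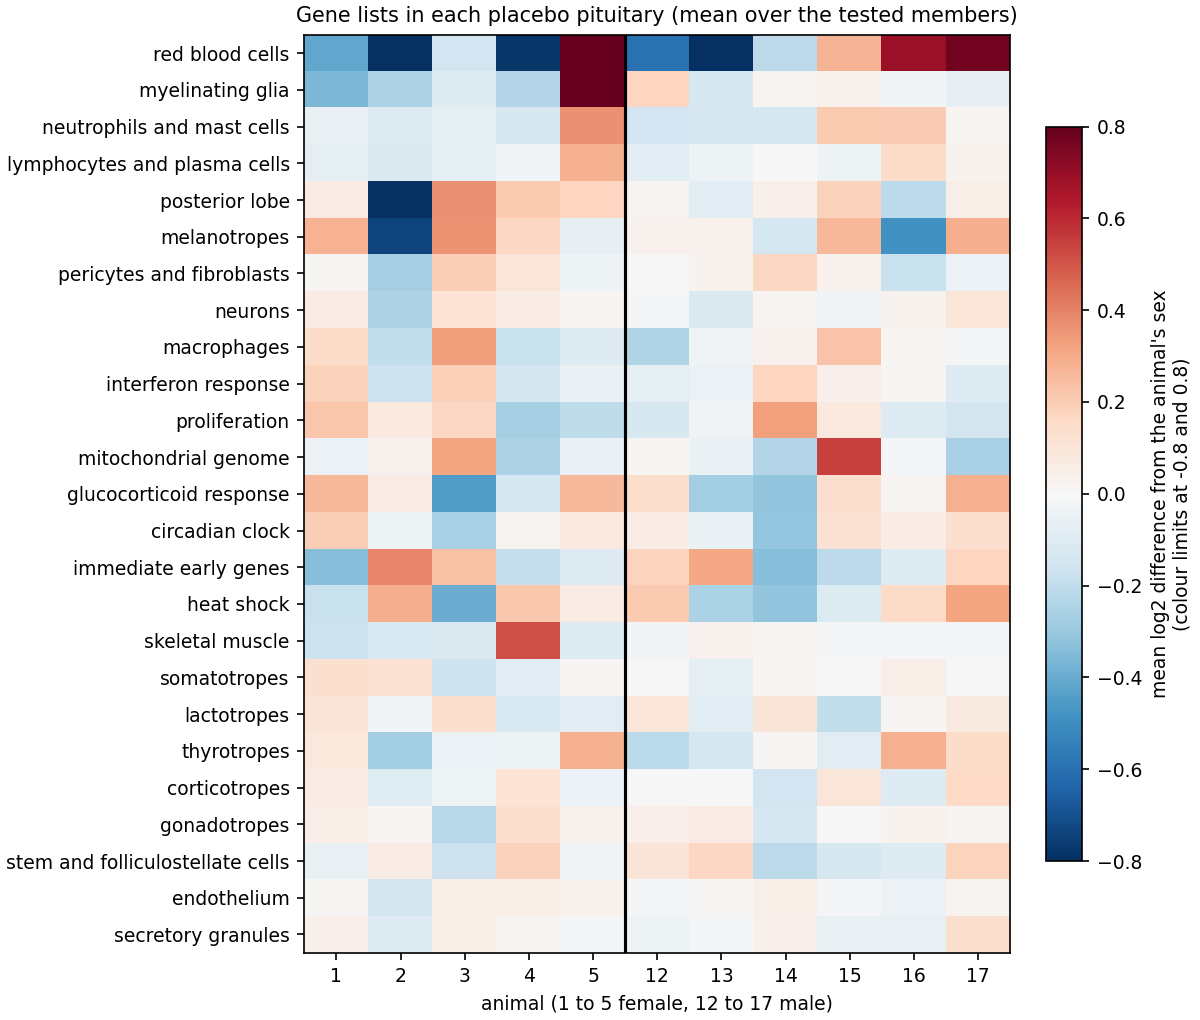
Mean centred rlog value (colour, log2 units) of each marker or pathway list (rows) in the 11 placebo animals (columns). Red blood cell genes stand at 2.24 in animal 5, posterior lobe genes at -0.81 and melanotrope genes at -0.74 in animal 2, and mitochondrial genes at 0.55 in animal 15.

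Among the circadian genes, Arntl and Npas2 ran against the Per genes. Of the 91 pairs of the 14 clock genes 50 were positive, with a median correlation of 0.339 that was 0.105 without animal 3. Arntl (BMAL1) and its partner Npas2 or Clock activate the Per and Cry repressors and the output factors Dbp and Tef through a promoter element called the E-box, and the repressors close the loop. Per2 had rlog values of 11.06, 10.29, 9.36, 10.47 and 10.38 in the females and 9.34, 10.31 and 10.98 in the males. Arntl had 8.19, 8.81, 9.50, 8.78 and 8.45 in the females and 7.92, 8.84 and 9.57 in the males. The animals with the least Per2 (3 and 14) had the most Arntl, and animals 1 and 15, with the most Per2, had the least Arntl. The centred values of Arntl and Per2 correlated at -0.967 (Spearman -0.973), and at -0.963 without animals 3 and 15. Arntl and Npas2 correlated at 0.978 (0.982 without the same animals), and Per2 and Dbp at 0.852 (0.754 without animals 3 and 14). These pairs were chosen after their values were seen and carry no test. The 14 clock genes had a median SD of 0.40, and all 14 were above the median of all genes.

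The E-box is shown here because it is the element through which Arntl acts. The letters CACGTG (a palindrome, so both strands are covered) were searched in RefSeq promoter windows (GRCm38.p6, 250 bases before to 50 after the start). Of 27025 genes with a window, 8.09% held the motif, as did 4 of the 13 clock genes with a window (30.8%), namely Ciart, Cry1, Per1 and Tef. Among 13 immediate early genes with a window 2 held it (15.4%), so a share above that of all genes was not particular to the clock genes. These counts are small, and other motifs were searched too but are not shown. The capitals mark the motif in each 30-base stretch, read 5′ to 3′ on the gene's strand.
Ciart at -116: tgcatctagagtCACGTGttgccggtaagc
Ciart at -58: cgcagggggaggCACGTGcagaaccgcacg
Ciart at -44: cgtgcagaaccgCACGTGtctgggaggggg
Per1 at -166: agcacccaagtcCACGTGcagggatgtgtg
Tef at -138: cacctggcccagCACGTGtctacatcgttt
Cry1 at -60: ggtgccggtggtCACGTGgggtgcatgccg
The Ciart stretches lie on the minus strand at chr3:95882327-95882356, chr3:95882269-95882298 and chr3:95882255-95882284. Those of the other genes are at chr11:69098771-69098800 (plus strand, Per1), chr15:81811264-81811293 (plus strand, Tef) and chr10:85185097-85185126 (minus strand, Cry1). Ciart, a repressor of the clock with 3 of these elements, had rlog values of 8.34, 7.66, 7.31, 7.40 and 7.86 in the females and 7.35, 7.92 and 8.57 in the males. Per1 had 12.34, 12.23, 11.21, 11.79 and 12.08 in the females and 11.10, 12.13 and 12.44 in the males. Tef had 12.24, 11.61, 11.21, 11.84 and 11.93 in the females and 11.17, 11.85 and 12.18 in the males. All 3 were lowest in animal 3 among the females and in animal 14 among the males, as was Per2. Another start of Tef holds the motif as well. Cry1 did not share the order of the other genes, with its highest female value of 9.01 in animal 3. A match to these letters is a description of the sequence and does not show that a factor was bound.

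The group that held the Per genes was mixed. Its 13 members (median correlation 0.760, and 0.681 without animal 3) were the clock genes Per1, Per2, Dbp, Ciart and Nr1d2, the stimulus-induced Fosl2, Nr4a3 and Homer1, and Zbtb16, Cebpd, Doc2b, Cyp2a5 and Sult1a1. Zbtb16, a transcription factor induced by glucocorticoids, had rlog values of 10.01, 9.70, 8.79, 8.91 and 10.37 in the females and 8.94, 9.51 and 10.19 in the males. Fkbp5, which tunes the glucocorticoid receptor, had 11.56, 11.01, 10.47, 10.74 and 11.33 in the females and 10.58, 11.03 and 11.41 in the males. The centred values of both correlated at 0.922, and at 0.893 without animals 3 and 4. Of the 28 pairs among the 8 glucocorticoid response genes, 26 were positive, with a median of 0.578.

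Immediate early genes, transcribed within minutes of a stimulus, were divided among groups. Fos, Fosb, Egr1, Junb, Dusp1 and Egr4 formed a group of their own (median correlation 0.751), Fosl2 and Nr4a3 were in the group of the Per genes, and Nr4a1 and Nr4a2 in that of Gdpd3. Fos had rlog values of 9.72, 11.42, 12.10, 11.04 and 10.52 in the females and 10.94, 11.52 and 12.42 in the males. Egr1 had 10.38, 12.32, 12.57, 11.43 and 11.55 in the females and 11.99, 12.08 and 12.99 in the males. Animal 1 was lowest for both and animal 13 highest. Fosl2 differed from the female mean by 0.52 in animal 1 and -0.60 in animal 3, where Fos differed by -1.24 and 1.14. The nuclear receptor Nr4a1 had 10.37, 12.23, 11.30, 10.52 and 12.04 in the females and 10.83, 11.95 and 12.81 in the males, so that animal 17 was highest, the male with the least Fos. All 17 immediate early genes had an SD above the median of all genes, and 102 of their 136 pairs correlated positively, with a median of 0.370.

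Gdpd3, the most variable gene, took either of 2 separate levels. Its rlog values were 6.97, 9.40, 6.90, 8.92 and 7.05 in the females, and 8.85, 8.82, 6.72, 6.98, 7.12 and 9.00 in males 12 to 17. Animals 2, 4, 12, 13 and 17 were high and the other 6 low, with no value in between. Rpl29, a ribosomal protein gene, took the opposite levels of 11.44, 10.48, 11.42, 10.44 and 11.33 in the females and 10.29, 10.43, 11.41, 11.52, 11.52 and 10.33 in males 12 to 17. Snhg11, a noncoding host of small nucleolar RNAs, sided with Gdpd3 at 9.50, 11.28, 10.15, 11.17 and 10.02 in the females and 9.41, 10.69 and 11.44 (lowest, median, highest) in the males. Cldn10, a tight junction protein, sided with Rpl29 at 8.61, 6.97, 9.14, 7.53 and 8.88 in the females and 7.51, 8.16 and 9.02 in the males. Since the values of Gdpd3 fall into separate clusters, a correlation with it served only to list the genes that share the split. Strain and genetic background were not given for these animals, and their part in the split was not tested. Of the 19147 genes examined, 71 had a correlation of at least 0.9 in size with Gdpd3, 43 of them positive. Over all pairs of genes examined, 0.106% had a correlation of at least 0.9 and 0.0878% one of at most -0.9. They lay on many chromosomes. The fullest 5 Mb window, chr9:104288251-107669530, held 6 of them (8.45%), among them Rpl29, Mrpl3 and Zmynd10, where 121 (0.632%) of all genes examined lie. The next fullest, chr2:155059310-158386145, held 5. Since the windows were picked for their count, no excess can be read from it. Several of the 71 are processed pseudogenes, which are copies of other genes' messengers. They include the 3 closest to Gdpd3, namely Gm13841, Gm8210 and Gm14036, each at 0.992. The copy Rpl29-ps5 stood at 0.945, opposite to Rpl29 at -0.971. Whether reads were shared between Rpl29 and such copies was not tested, so the 71 need not be separate transcripts.

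Other groups were smaller. The antigen-presenting genes Cd74, H2-Aa, H2-Ab1 and H2-Eb1 grouped with Pttg1, Cldn10 and Rpl29 (13 genes at 0.817), highest in animals 15 and 3 and lowest in animals 12 and 2. Pttg1, the securin of the separating chromatids, had rlog values of 7.40, 6.52, 8.14, 6.23 and 6.68 in the females and 6.19, 7.10 and 8.16 in the males. The mitochondrial mt-Atp8, mt-Nd3 and mt-Te grouped at 0.972 with animal 15 at 1.20 above its sex's mean. mt-Atp8 had 13.48, 13.26, 13.86, 13.01 and 13.31 in the females and 12.16, 12.66 and 14.07 in the males. The structured noncoding RNAs Rn7s1, Rn7s2, Rn7sk and Rpph1, with the 5.8S ribosomal RNA gene n-R5-8s1, grouped at 0.926 and were highest in animal 3 at 0.84. Their mature forms have no poly(A) tail, and these libraries were made from poly(A)-selected RNA.

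Among the lists, proliferation genes moved together, whereas most endocrine lineage lists had low median correlations. All 36 pairs of the 9 proliferation genes correlated positively at a median of 0.756. Mki67, a marker of cycling cells, had rlog values of 8.54, 8.02, 8.20, 7.43 and 7.57 in the females and 7.24, 7.42 and 8.22 in the males, highest in animals 1, 3 and 14. The macrophage genes had a median of 0.728 with all 28 pairs positive, heat shock genes 0.791, interferon response genes 0.547 and cholesterol synthesis genes 0.449. The median was -0.0237 for the somatotrope genes, -0.00587 for the lactotrope genes, 0.130 for the thyrotrope genes, 0.0382 for the corticotrope genes, 0.128 for the gonadotrope genes and 0.0346 for the lineage transcription factors. Apart from the melanotrope genes, the marker lists of the hormone-producing lineages thus shared little by their medians. Single pairs within them were close all the same. The closest thyrotrope pair was Cga and Tshb at 0.975, and 14 of 21 pairs were positive. The closest gonadotrope pair was Lhb and Nr5a1 at 0.869, and 28 of 45 pairs were positive. Lhb and Nr5a1 were picked here by their values and were not tested. The 6 skeletal muscle genes measured had a median of 0.90 that came from animal 4 alone (-0.0605 without it), at low levels such as 5.44 for Acta1 in animal 4 against 4.13 to 4.22 in the other females.

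Which genes followed each hormone was tested across all genes with 1 limma fit per hormone, with a mean for each sex and a slope on the hormone's value (Benjamini-Hochberg adjusted p under 0.05 over 19146 genes). Pomc was followed by 5 genes, 0.0261% of those tested. They were Jam2, a junction adhesion molecule, with a slope of 0.72 log2 units per log2 unit of Pomc (SE 0.078, adjusted p = 0.00392), the secreted Esm1 (0.86, adjusted p = 0.00392), Pcsk2 (0.82, adjusted p = 0.0227), Oacyl (0.90, adjusted p = 0.0227) and Enc1 (0.76, adjusted p = 0.0469). Jam2 kept its call with any 1 animal left out, Esm1 in 10 of 11 cases, Pcsk2 in 7, Oacyl in 6 and Enc1 in 2. The number of genes called was 1 without animal 2, 2 without animal 1, 16 or 17, 3 without animal 5 and 9 without animal 15. All 5 slopes were positive in each of these fits. Without a filter on low values no gene passed for Pomc or Gh, and after quantile normalization, which ties the highest genes to their rank, 0 of the 5 passed.

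Cga was followed by 1 gene, Tshb (0.00522% of those tested), with a slope of 1.83 (SE 0.13, limma adjusted p = 1.26e-05). Tshb in turn was followed by 2 genes (0.0104%), Cga with a slope of 0.52 (adjusted p = 0.00121) and the serine protease gene Prss28 with 0.84 (adjusted p = 0.00673). Cga and Tshb called each other with any 1 animal left out. Prss28 lost its call without animal 12 (adjusted p = 0.0861). Without animal 16 the Tshb fit called 10 genes. Without animals 1, 2 or 17 the Cga fit called 2, 2 and 3.

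Gh was followed by 12 genes, 0.0627% of those tested, 10 with a positive slope (0.0522%) and 2 with a negative one (0.0104%). The nucleotide transporter Slc17a9 had a slope of 1.16 (SE 0.14, limma adjusted p = 0.0118), Fetub 0.95 (adjusted p = 0.0118), Dapl1 1.63 (adjusted p = 0.0143), the exonuclease Isg20 0.86 (adjusted p = 0.0179) and Xlr3b 2.10 (adjusted p = 0.0222). Phyhip had a slope of -0.72 (adjusted p = 0.0255) and the potassium channel Kcnn3 -0.79 (adjusted p = 0.0451). The set depended on single animals, with 0 genes called without animal 12, 1 without 16, 2 without 4 or 13, 3 without 15, 5 without 3, 39 without 14 and 98 without 2. Slc17a9 kept its call in 10 of 11 such fits and Kcnn3 in 3. At an unadjusted p under 0.05 the Gh fit held 2878 genes, which is 15.0% of those tested.

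Prl, Lhb and Fshb were followed by no gene at the threshold (0% called). limma gave 1207, 2145 and 1139 genes at an unadjusted p under 0.05, which is 6.30%, 11.2% and 5.95% of those tested. The smallest limma adjusted p was 0.291, 0.134 and 0.336. The Lhb fit called 1 gene without animal 4 and 2 without animal 16.

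Pairs of lineage partners were then compared over the 11 animals (15 pairs, centred values, two-sided exact permutation within each sex, Benjamini-Hochberg over the 15). Cga and Tshb correlated at r = 0.975 (rho = 0.955, exact p = 3.47e-05, adjusted p = 0.000521), and at 0.95 without animals 12 and 16. Among the 6 males alone r was 0.973. Lhb, another partner of Cga, did not follow it (r = 0.026, rho = -0.0727, exact p = 0.935). Fshb with Cga was not among the 15 pairs. Lhb and Fshb had r = -0.261 (rho = -0.218, exact p = 0.589), and 0.0672 without animals 1 and 14. Their correlations with Gnrhr were 0.0516 for Lhb and 0.496 for Fshb (exact permutation p = 0.912 and 0.191), the latter 0.0775 without animal 1.

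Gh and Prl correlated at r = 0.838 (rho = 0.8, exact p = 0.00284, adjusted p = 0.00851), and at 0.877 without animals 4 and 12. Among the 6 males r was 0.734 (exact p = 0.103). Neither hormone gene passed the test with the receptor for its hypothalamic regulator. Gh and Ghrhr had r = 0.445 and Prl and Drd2 r = -0.428 (exact permutation p = 0.2 and 0.241). Pomc and Pcsk2 had r = 0.901 (rho = 0.891, exact p = 0.000382, adjusted p = 0.00214), and 0.772 without animals 2 and 16. Pcsk2 and Pax7 had r = 0.899 (rho = 0.773, exact p = 0.00104, adjusted p = 0.00391). Without animals 2 and 16 this r was 0.726 and no longer passed over the fewer animals (exact p = 0.0656), so the call rests on them together. It passed with any single animal left out (r from 0.786 to 0.954). Pomc and Tbx19 had r = 0.40 and Pomc and Gh r = -0.278 (exact permutation p = 0.26 and 0.427).

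Fos and Egr1 correlated at r = 0.929 (rho = 0.873, exact p = 0.000428, adjusted p = 0.00214), and at 0.832 without animals 1 and 3. Like Pomc and Pcsk2, these genes also share a group built above from the same values. Their tests are therefore no separate support for those groups. Avp and Oxt, which come from different neurons, had r = 0.764 (rho = 0.573, exact p = 0.0454, adjusted p = 0.0972), but 0.174 without animals 2 and 15. The stem cell factors Sox2 and Sox9 had r = 0.604 (rho = 0.464, exact p = 0.0439, adjusted p = 0.0972).

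**Figure D5:**
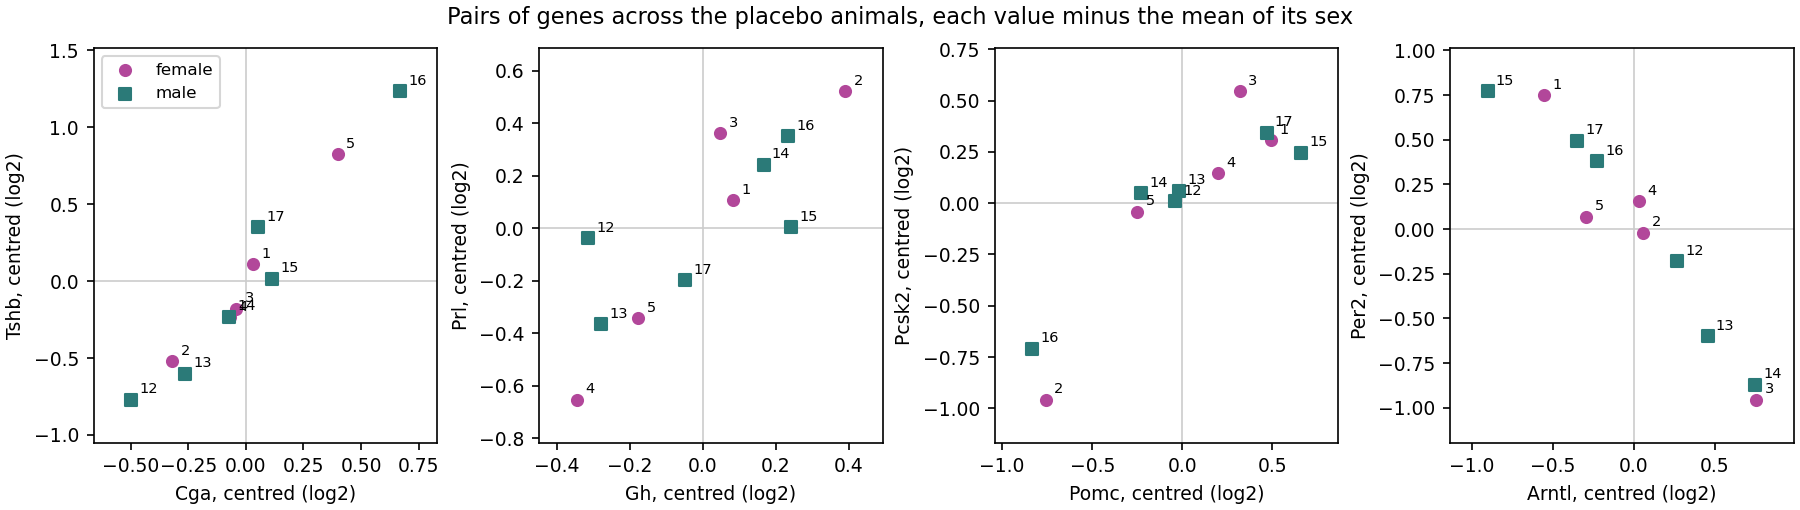
Centred rlog values (log2 units from the mean of each animal's sex, both axes) of 4 pairs of genes in 5 females and 6 males, each point 1 animal. Cga and Tshb (r = 0.975), Gh and Prl (0.838) and Pomc and Pcsk2 (0.901) lie along rising lines, and Arntl and Per2 (-0.967), chosen after their values were seen, along a falling one.

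Between the sexes the placebo pituitaries differed at 8 genes, all on the X or Y chromosome. limma called 8 of 19147 genes (0.0418%), 5 higher in males (0.0261%) and 3 lower (0.0157%), and 674 genes (3.52%) had an unadjusted p under 0.05. Xist, the RNA that silences an X chromosome, differed by -5.71 on the log2 scale (males minus females), with 14.01, 13.97, 13.93, 14.05 and 14.12 in the females and 8.03, 8.26 and 8.89 in the males. The Y-linked Kdm5d, Ddx3y, Uty and Eif2s3y were higher in males by 3.07, 3.18, 2.38 and 3.29, and Gm29650, a noncoding gene on the Y chromosome, by 1.56. Females carry no Y chromosome, so their values near 6 are a floor of the shrunken scale, and these differences may understate the contrast. The X-linked demethylases Kdm6a (-0.53, SE 0.076, adjusted p = 0.0113) and Kdm5c (-0.40, SE 0.066, adjusted p = 0.0466) were lower in males. Kdm6a lost its call without animals 1, 4 or 5, and Kdm5c kept its call in 2 of 11 fits with 1 animal left out. All 8 called genes separated the sexes without overlap, but they were called for this difference on the same values. By Xist and the Y-linked Kdm5d, Ddx3y, Uty and Eif2s3y, every library matched the sex in its label.

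None of the 7 hormone genes passed between the sexes (limma). Pomc was 0.70 higher in males (SE 0.25, 95% interval 0.17 to 1.23, unadjusted p = 0.0136, adjusted p = 0.999). Fshb was -0.40 in males against females (SE 0.21, interval -0.84 to 0.04, adjusted p = 0.999). Gh differed by -0.03 (interval -0.38 to 0.31), Prl by 0.01 (-0.39 to 0.41) and Lhb by 0.02 (-0.26 to 0.30). Cga differed by 0.13 (-0.22 to 0.49) and Tshb by 0.11 (-0.53 to 0.76). These intervals leave differences up to their bounds possible. No member of the other lists passed apart from the sex-linked genes, 5 of 5 called. The median difference between males and females was -0.0633 over the 10 gonadotrope genes and 0.407 over the 5 melanotrope genes, beside -0.00196 over all genes. The melanotrope median is the value of Pcsk2, which ran from 0.167 to 0.549 with 1 animal left out. These 5 genes co-varied, and animal 2 lay below the female mean for all 5, from -0.14 for Tbx19 to -1.04 for Oacyl.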

How the data were processed

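RNA of 25 whole mouse pituitaries was sequenced, and the 11 placebo libraries were used. The authors deposited 1 table of regularized log2 values (rlog) per gene, scaled across all 25 libraries. The submitters' processing notes name bcl2fastq, STAR, featureCounts and mm10. Tool versions, strandedness and annotation were not given in the sources used here. RNA integrity numbers were above 8.2 (median 9.1), and ribosomal and globin transcripts were depleted. Counts were not used here, so the depth and counting error of each value are unknown, and the number of animals limits the precision.

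The filter on low values was a mean of 3 or more over the placebo animals. Lengths and positions came from GENCODE (GRCm38, 46488 genes matched). The members and gene lists were chosen with earlier results of these data known. Named genes were the hormone genes and list members, the 30 highest, the 30 most variable without predicted genes, up to 5 per sign called for each hormone, and up to 6 per direction between the sexes. A few of these genes are not reported here. Fits used limma 3.58.1 in R 4.3.3 with a variance trend, a two-sided test and Benjamini-Hochberg adjustment, and were tested on simulated data. Pairs were tested by exact enumeration of all 86400 orderings within the sexes, in place of a planned random draw. The smallest p this allows is 1.16e-05. Alternatives were other filters on low values, quantile normalization, no trend, other measures of spread and each animal left out. Python 3.11.15 with numpy 2.4.6, pandas 2.3.3 and scipy 1.17.1 was used.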

Additional observations from a re-analysis of the deposited data

Results flagged for a closer look

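Of 136 sets of 5 or 6 animals examined for 1 animal far from the rest (a gap to the nearest value above 0.71 of the range for 5 animals and 0.625 for 6), 23 (16.9%) were singled out. Chance gives about 5% for sets not chosen by their values, but 10 of the 23 are genes picked for a large SD over these animals, and the sets share animals, so that rate does not apply here.

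Animal 5 stood above the other females for 9 of the most variable genes. The rlog values were 15.60 for Hba-a1 (12.07 to 12.59 in the others), 15.14 for Hbb-bs (11.63 to 12.53), 13.49 for Hbb-bt (10.08 to 10.85), 14.67 for Hba-a2 (11.26 to 12.24) and 11.47 for Alas2 (8.15 to 9.10). The red cell band 3 gene Slc4a1 was at 7.29 (5.60 to 5.99), Ube2l6 at 10.16 (8.05 to 8.51) and Nrgn at 9.16 (7.13 to 7.40). The myelin gene Prx was at 7.31 (5.10 to 5.28). By list mean, animal 5 was at 12.94 for red blood cells (9.81 to 10.55 in the other females) and 8.46 for myelinating glia (7.16 to 7.41). It was at 4.76 for lymphocytes and plasma cells (4.36 to 4.46) and 7.97 for the sex-linked genes (7.83 to 7.86). For neutrophils and mast cells it was at 4.30 (3.81 to 3.87). That mean holds only S100a8 and S100a9 of 6 genes, since Ngp and the mast cell genes Cma1, Cpa3 and Mcpt4 fell below the filter.

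Animal 2 stood below the other females for Scn7a at 8.10 (9.89 to 10.47) and for the list means of the posterior lobe at 6.71 (7.59 to 7.89), neurons at 7.80 (8.05 to 8.16), endothelium at 9.32 (9.48 to 9.52) and bone and cartilage at 7.63 (7.77 to 7.82, the single gene Col2a1). It stood above them for ciliated cells at 7.40 (7.15 to 7.20). Animal 4 stood above the other females for skeletal muscle genes at 4.68 (3.99 to 4.05). Among the males, animal 14 stood below the others for gonadotrope genes at 9.37 (9.51 to 9.57) and animal 15 above them for mitochondrial genes at 15.65 (14.84 to 15.12).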

How the results depend on the processing

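No paired analysis was possible because each animal has a number of its own and nothing links a female to a male. No result past its threshold changed direction under any alternative. Of the printed results that did not pass, the sign changed with 1 animal left out for Lhb and Fshb (r from -0.428 to 0.201), Lhb and Cga (-0.263 to 0.230), Lhb and Gnrhr (-0.351 to 0.501), Pomc and Gh (-0.516 to 0.031) and the sex differences of Gh (-0.12 to 0.06), Prl (-0.15 to 0.14), Lhb (-0.07 to 0.10) and Tshb (-0.13 to 0.32). Without a filter on low values the Gh and Pomc fits called 0 genes and the Tshb fit 1, over more genes tested. The Pomc fit called 23 genes after quantile normalization, 0 of the 5 named genes among them, and 2 without the variance trend, and the pair of Pomc and Pcsk2 had r = 0.756 after quantile normalization, which sets the values of the highest genes by construction and leaves Gh constant, so that no Gh value could be had. By median absolute deviation 18 of the 30 most variable genes remained. With 1 animal left out, the fits called 0 to 98 genes for Gh, 1 to 9 for Pomc, 1 to 10 for Tshb, 1 to 3 for Cga, 0 to 2 for Lhb, 0 for Prl and Fshb, and 6 to 8 between the sexes. Sox2 and Sox9 ranged from 0.507 to 0.781, passing without animal 14 (adjusted exact p = 0.0104), and Avp and Oxt from 0.323 to 0.849, passing without animal 17 (adjusted exact p = 0.0497). Of the 30 most variable genes 23 to 28 remained. Of the single-gene values, 24 of those under other settings and 63 of those with 1 animal left out lost a call without changing direction. Unknown depth limits every low value.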
